A study of Mus musculus with 9 samples.

Results

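The genes described here encode the machinery that carries proteins into mitochondria, together with the prohibitins of the inner membrane. They were chosen by symbol: every Timm or Tomm gene with a number, plus Phb, Phb2, Hspa9, Grpel1, Pmpca, Pmpcb, Samm50, Dnajc19 and Chchd4. The rule uses no measured value, but the genes were chosen with earlier results of these data known. It found 34 of the 23992 gene symbols in the tables. Of these, 31 passed the filter on low values (RPKM, reads per kilobase of transcript scaled to library size, of 1 or more in 3 or more libraries) and were tested, and 3 did not pass.

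The RNA came from mouse regulatory T cells (Tregs), a T cell type that depends on interleukin-2 (IL-2), of the BALB/c strain and with spleen as the labelled source. All groups carried a green fluorescent protein linked to Foxp3, the transcription factor of Tregs, and carried, by transduction, oIL-2Rβ, an orthogonal form of the beta chain of the IL-2 receptor, marked with a human EGFR tag. All had been expanded for 48 hours on CD3/CD28 beads with 1000 IU/mL human IL-2, selected by the tag, and kept overnight without the cytokine. The ortho IL-2 group then received 2000000 IU/mL of orthogonal IL-2, an engineered cytokine meant for the engineered receptor, for 4 hours. The WT IL-2 group received 20000 IU/mL of wild-type IL-2 over the same 4 hours, and the no IL-2 group received none. Each group has 3 libraries. The labels do not say whether libraries of a group are separate animals or cultures, and p-values therefore speak only to the scatter among these libraries, possibly technical. The age of the animals is not in the labels, and the culture is described from the treatment label, since the label on growth concerns a co-culture.

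Most mitochondrial proteins are made in the cytosol and enter through the TOM complex of the outer membrane. From there, proteins with a presequence pass the TIM23 channel and are pulled into the matrix by the Hspa9 motor, carrier proteins are escorted by small TIM chaperones to the TIM22 complex, and other routes serve the intermembrane space and the outer membrane. Prohibitins form ring-shaped scaffolds in the inner membrane, and T cells are known to enlarge their mitochondrial content when they are activated.

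The libraries held 16581624 to 58182835 reads in genes, at which 3 reads correspond to 0.0516 to 0.181 CPM (reads of a gene scaled to the library total). Whether reads were counted by strand is not known, so overlapping genes cannot be told apart, and 24 of the 34 genes overlap another annotated gene, 9 of them on the same strand. Dnajc19, Timm17a and Timm8a1 each have 1 near-identical copy elsewhere that may share their reads, as do 3 genes named below. Levels below are CPM of reads in genes after TMM scaling, a scaling that assumes most genes do not change, and they are relative to total mRNA: in bulk samples, fewer cells of a type and less RNA per cell cannot be told apart. All 9 Treg and T cell markers found in the tables were present in every library, but they did not move one way. Foxp3 was at 747 to 1034 CPM with either IL-2 and at 513 to 529 CPM without, whereas Ctla4 was at 833 to 951 CPM with either IL-2 and at 1297 to 1301 CPM without. Ikzf2 (1179 to 1506 CPM with either IL-2 against 1685 to 1762 CPM without), Cd4 (450 to 471 CPM with either IL-2 against 645 to 673 CPM without) and Cd3g (236 to 262 CPM with either IL-2 against 337 to 355 CPM without) were likewise lower with IL-2. So was Cd3d, at 248 to 266 CPM with either IL-2 against 277 to 291 CPM without. Cd3e and Lck overlapped between libraries with and without IL-2, and Il2ra, given below, was higher. The part of these markers in the results was not tested. Summed markers of B cells (at most 7.21 CPM in a library), myeloid cells (at most 13.2) and CD8 and NK cells (at most 24.1) were low in all 9 libraries. The summed erythroid and stromal markers, nearly all from Pecam1, reached 220 to 230 CPM with ortho IL-2, 223 to 228 with WT IL-2 and 278 to 292 without IL-2. The stimulation was visible in known IL-2 targets, with Il2ra 3.98-fold, Cish 8.14-fold, Socs1 22.3-fold and Myc 5.40-fold higher with ortho IL-2, and 4.11-fold, 7.73-fold, 20.6-fold and 5.48-fold higher with WT IL-2. The share of reads outside the transcripts taken was inferred, as the part of the library size divisor of the deposited RPKM not counted in them. Which reads that divisor counts is not stated. This share followed the groups, at 29.4% ± 3.64 with ortho IL-2, 31.7% ± 2.96 with WT IL-2 and 40.5% ± 2.43 without IL-2 (SD, n = 3 each).

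With both cytokines the import and prohibitin genes rose more often than they fell, and the largest estimates with either cytokine included the prohibitin Phb, 4 of the 6 small TIM genes tested and the motor protein Hspa9. With ortho IL-2, 21 of the 31 tested genes rose, 2 fell (Timm44 and Tomm34, neither called with the other scaling below) and 8 were not called by edgeR's quasi-likelihood test (adjusted p under 0.05 over all 10702 genes tested). Over all genes, 28.5% were called higher and 27.4% lower in that comparison (56.0% in either direction). With WT IL-2, 18 rose, the same 2 fell and 11 were not called, against 25.0% higher and 22.9% lower over all genes (47.9% in either direction). The median log2 fold change of the 31 genes was 0.28 with ortho IL-2 and 0.27 with WT IL-2, where the median over all genes tested was 0.01 for both. Changes of at least 2-fold were rare: 2 genes passed that bound and were called with ortho IL-2 (Phb and Timm10, 3.83% of all genes) and 2 with WT IL-2 (Phb and Timm8a1, 3.49% of all genes).

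Both comparisons use the same no IL-2 libraries and are not independent. Libraries of the cytokine group and of the no IL-2 group did not overlap for 24 of the 31 genes with ortho IL-2 (66.1% of all genes tested) and for 23 with WT IL-2 (58.8% of all genes tested). The summed level of the 34 genes was 1359 ± 17.6 CPM with ortho IL-2, 1351 ± 18.5 CPM with WT IL-2 and 1081 ± 11.9 CPM without IL-2 (SD, n = 3 each). With that percentage of outside reads added to the model, 3 genes (Hspa9, Phb and Timm8a1) were still called with ortho IL-2 and 6 (Hspa9, Phb, Pmpca, Timm13, Timm23 and Timm8a1) with WT IL-2, all higher. Because that share nearly follows the groups, its part in the results and that of the cytokine cannot be told apart. The choice of scaling also matters. With the divisor of the deposited RPKM in place of TMM, the all-gene median was 0.29 with ortho IL-2 and 0.22 with WT IL-2. That divisor also turned genes not called with TMM into rises. These were Timm8b, Timm10b, Timm17b, Timm22 and Tomm22 with both cytokines, Pmpcb with ortho IL-2, and Grpel1, Tomm7 and Tomm40l with WT IL-2. Log2 fold changes and calls below are relative to TMM unless another scaling is named.

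**Figure D1:**
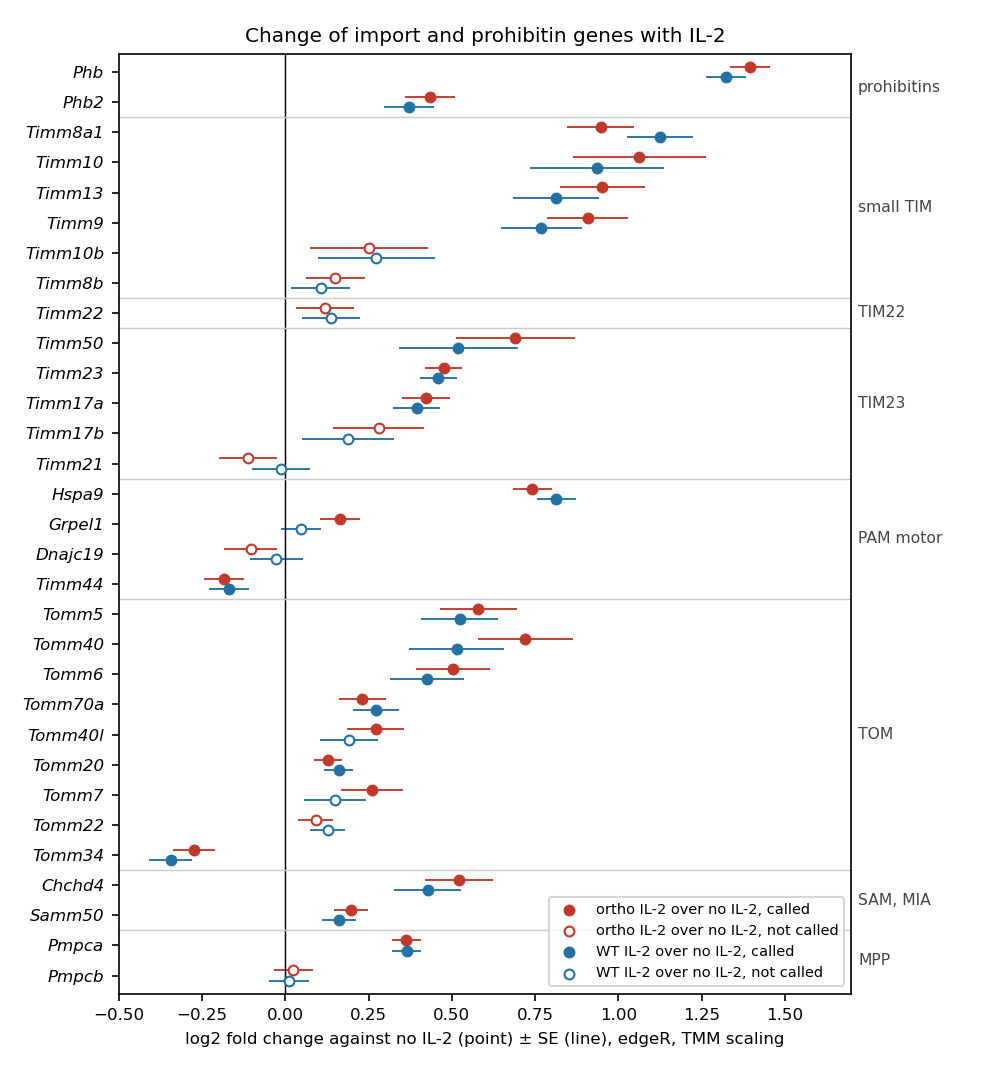
Log2 fold change against no IL-2 (horizontal axis) for the 31 tested genes, grouped by role; points are edgeR estimates with TMM scaling, lines are ± 1 SE, red is ortho IL-2, blue is WT IL-2, and open points are not called. Phb lies farthest right at 1.39 with ortho IL-2 and 1.32 with WT IL-2, and Tomm34 farthest left at -0.27 with ortho IL-2 and -0.34 with WT IL-2.

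Promoters are printed for the 2 prohibitins, as partners with different estimates, and for the 4 small TIM genes that rose. Each covers 250 bases before to 50 bases after the annotated start, taken from RefSeq on GRCm38.p6 and printed 5′ to 3′ on the strand of the gene, with matches to CACGTG (the E-box) or to CCGGAAG (the core of ETS motifs, or its reverse complement) or to CGCATGC (the core of the NRF1 motif, or its reverse complement) in capitals. The spans are chr11:95666707-95667006 on the plus strand for Phb, chr6:124712039-124712338 on the plus strand for Phb2, chr2:84826771-84827070 on the plus strand for Timm10, chr10:80900920-80901219 on the minus strand for Timm13, chrX:134541621-134541920 on the minus strand for Timm8a1 and chr12:71136626-71136925 on the minus strand for Timm9.
Phb: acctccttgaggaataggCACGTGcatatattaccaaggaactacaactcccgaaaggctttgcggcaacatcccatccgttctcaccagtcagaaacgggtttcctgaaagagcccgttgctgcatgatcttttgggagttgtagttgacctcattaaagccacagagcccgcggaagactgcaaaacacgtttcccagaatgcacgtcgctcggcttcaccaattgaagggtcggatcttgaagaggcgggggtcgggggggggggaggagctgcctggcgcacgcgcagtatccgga
Phb2: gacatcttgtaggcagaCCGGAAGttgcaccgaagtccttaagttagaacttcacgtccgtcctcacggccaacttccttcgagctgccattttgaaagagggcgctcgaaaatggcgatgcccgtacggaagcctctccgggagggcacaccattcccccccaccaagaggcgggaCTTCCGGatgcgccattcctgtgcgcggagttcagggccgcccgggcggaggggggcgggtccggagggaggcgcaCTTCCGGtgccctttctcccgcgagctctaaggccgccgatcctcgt
Timm10: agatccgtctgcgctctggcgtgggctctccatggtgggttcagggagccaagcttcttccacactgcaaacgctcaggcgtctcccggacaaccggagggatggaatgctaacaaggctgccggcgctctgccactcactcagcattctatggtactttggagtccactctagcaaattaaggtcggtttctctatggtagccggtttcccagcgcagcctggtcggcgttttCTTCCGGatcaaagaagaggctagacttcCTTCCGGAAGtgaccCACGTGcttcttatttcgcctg
Timm13: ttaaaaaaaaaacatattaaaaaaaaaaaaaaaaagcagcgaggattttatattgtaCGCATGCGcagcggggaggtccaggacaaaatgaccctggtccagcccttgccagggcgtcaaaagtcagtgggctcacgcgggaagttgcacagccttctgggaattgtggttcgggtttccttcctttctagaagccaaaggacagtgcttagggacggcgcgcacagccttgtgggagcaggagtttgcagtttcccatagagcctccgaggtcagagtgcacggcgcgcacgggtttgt
Timm8a1: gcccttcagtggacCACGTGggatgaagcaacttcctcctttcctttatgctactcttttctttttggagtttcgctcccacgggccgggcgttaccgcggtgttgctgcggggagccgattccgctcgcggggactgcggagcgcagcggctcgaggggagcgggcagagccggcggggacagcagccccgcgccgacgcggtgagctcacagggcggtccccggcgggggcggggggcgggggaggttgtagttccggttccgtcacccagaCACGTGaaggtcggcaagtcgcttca
Timm9: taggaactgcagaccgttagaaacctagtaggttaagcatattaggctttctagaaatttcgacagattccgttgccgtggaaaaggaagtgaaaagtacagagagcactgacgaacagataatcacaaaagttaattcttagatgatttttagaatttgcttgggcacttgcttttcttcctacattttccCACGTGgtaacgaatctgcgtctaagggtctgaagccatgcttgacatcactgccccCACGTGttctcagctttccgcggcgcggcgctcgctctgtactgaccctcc

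The window of Phb holds 1 E-box, at position -232 from the start, whereas that of Phb2 holds none and has 3 ETS matches. Timm8a1 and Timm9 each have 2 E-boxes, and Timm10 has 1 E-box beside 3 ETS matches, a pair of which overlap. Timm13 has no E-box and no ETS match, and its window holds the NRF1 core on both strands at overlapping positions. Of the 27 tested members with a promoter in the table (all but Hspa9, Timm21, Tomm7 and Tomm40l), 5 (18.5%) held CACGTG in at least 1 window: Phb, Timm10, Timm8a1, Timm9 and Tomm20. The same letters were in 12.3% of 8420 tested genes with a promoter. CCGGAAG was present in 11 (40.7%) of the 27, against 23% of tested genes, and CGCATGC in 2 (7.41%, Grpel1 and Timm13), against 7.85% of tested genes. With the 3 untested members included, CACGTG was in 7 of 30, Tomm20l and Tomm6os being the others, against 8.09% of all 27025 genes in the table. Both strands were searched, and a match says only that these letters are present.

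The 2 prohibitins, which assemble together into a ring complex, both rose, Phb by the larger estimate. Phb had 79.0, 77.2 and 77.8 CPM with ortho IL-2, 76.3, 74.0 and 72.5 CPM with WT IL-2, and 29.2, 27.6 and 32.5 CPM without IL-2. The IL-2 libraries all stood above the no IL-2 libraries, with no overlap, and the fold change was 2.63 with ortho IL-2 and 2.5 with WT IL-2. On the log2 scale this was 1.39 ± 0.060 (SE) with ortho IL-2 and 1.32 ± 0.060 with WT IL-2 (edgeR, adjusted p = 7.92e-08 with ortho IL-2 and 1.14e-07 with WT IL-2). Phb2 had 67.0, 62.0 and 73.1 CPM with ortho IL-2, 70.8, 61.5 and 61.4 CPM with WT IL-2, and 48.9, 51.6 and 49.3 CPM without IL-2. Its groups did not overlap either, and its log2 fold change was 0.43 ± 0.075 with ortho IL-2 and 0.37 ± 0.076 with WT IL-2 (edgeR, adjusted p = 9.36e-04 with ortho IL-2 and 0.00269 with WT IL-2). The Phb2 change was smaller, at 0.13 with ortho IL-2 and 0.14 with WT IL-2, and was still called when counts were offset for GC content and length. Phb has 3 near-identical copies elsewhere in the transcript set, 2 of them pseudogenes, so its reads may include theirs.

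Per transcript length, Phb was close to Phb2 in the IL-2 libraries and well under it in the no IL-2 libraries. Within a library, the ratio of Phb to Phb2 in RPKM was 0.891, 0.941 and 0.804 with ortho IL-2, 0.815, 0.910 and 0.893 with WT IL-2, and 0.452, 0.404 and 0.497 without IL-2. The 6 IL-2 libraries did not overlap with the 3 others, and the ratio was 1.94-fold higher over them. The exact two-sided permutation test gave p = 0.0238, the smallest value that 6 against 3 libraries allow. Its adjusted p was 0.0571 over the 12 pairs of partners compared, which misses 0.05. Over 12 pairs, no pair could pass alone, whatever its difference. The pairs were also chosen with earlier results of these data known, so their p-values are descriptive only. Among the 31 tested genes ranked by mean RPKM within a group, Phb was in place 7 with ortho IL-2 and with WT IL-2, and in place 17 without IL-2.

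Of the 6 small TIM genes tested, 4 rose with each cytokine and none fell. These short proteins form hexamers in the intermembrane space that shield hydrophobic precursors. Timm9 and Timm10 form such a hexamer, and so do Timm8a1 and Timm13. These 4 rose, while Timm8b and Timm10b did not pass the test with TMM scaling. With the RPKM divisor as scaling, Timm8b and Timm10b were called higher with both cytokines. The summed level of the 6 genes, with Timm8a2, was 66.5 ± 5.00 CPM with ortho IL-2, 65.6 ± 3.15 CPM with WT IL-2 and 44.0 ± 0.854 CPM without IL-2 (SD, n = 3 each).

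Timm10 had 4.26, 3.85 and 3.75 CPM with ortho IL-2, 4.45, 3.69 and 2.67 CPM with WT IL-2, and 1.96, 1.58 and 2.20 CPM without IL-2. WT IL-2 library 3 was the lowest of the stimulated ones and still above all no IL-2 libraries. With 36 to 223 reads in a library, Timm10 had the fewest reads of the tested genes, and its log2 fold change had the widest error: 1.06 ± 0.20 with ortho IL-2 and 0.94 ± 0.20 with WT IL-2 (edgeR, adjusted p = 0.00155 with ortho IL-2 and 0.00368 with WT IL-2). Timm9 had 7.16, 9.23 and 8.88 CPM with ortho IL-2, 7.14, 8.30 and 7.49 CPM with WT IL-2, and 4.56, 4.21 and 4.71 CPM without IL-2, again without overlap between the stimulated libraries and the rest. For Timm9, the log2 fold change was 0.91 ± 0.12 with ortho IL-2 and 0.77 ± 0.12 with WT IL-2 (edgeR, adjusted p = 1.69e-04 with ortho IL-2 and 5.54e-04 with WT IL-2). The Timm9 to Timm10 ratio in RPKM overlapped between stimulated and unstimulated libraries (0.905-fold, exact permutation p = 0.571).

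Timm8a1 is the mouse counterpart of the gene mutated in human deafness-dystonia syndrome. It had 13.9, 12.8 and 12.2 CPM with ortho IL-2, 13.8, 15.5 and 14.7 CPM with WT IL-2, and 7.22, 5.94 and 7.03 CPM without IL-2. All 6 stimulated libraries lay well above the others, with a log2 fold change of 0.95 ± 0.10 with ortho IL-2 and 1.13 ± 0.10 with WT IL-2 (edgeR, adjusted p = 3.47e-05 with ortho IL-2 and 1.02e-05 with WT IL-2). Its partner Timm13 had 13.9, 13.9 and 16.4 CPM with ortho IL-2, 15.3, 11 and 13.8 CPM with WT IL-2, and 7.59, 7.33 and 8.01 CPM without IL-2. The groups did not overlap, and the change was 0.95 ± 0.13 with ortho IL-2 and 0.81 ± 0.13 with WT IL-2 on the log2 scale (edgeR, adjusted p = 1.82e-04 with ortho IL-2 and 5.66e-04 with WT IL-2). Offset for GC content and length, the Timm13 estimates were 0.59 with ortho IL-2 and 0.55 with WT IL-2 and were still called.

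The other members of the small TIM group were not called. Timm8b had 13.9, 14.6 and 16.6 CPM with ortho IL-2, 14.5, 15.2 and 14.2 CPM with WT IL-2, and 13.9, 14.2 and 12.6 CPM without IL-2, with overlapping libraries for ortho IL-2, and its log2 fold change of 0.15 ± 0.088 with ortho IL-2 and 0.11 ± 0.088 with WT IL-2 was not called (edgeR, adjusted p = 0.172 with ortho IL-2 and 0.345 with WT IL-2). Timm10b, which in human cells binds the TIM22 complex, had 10.5, 9.04 and 14.3 CPM with ortho IL-2, 13.9, 9.75 and 11 CPM with WT IL-2, and 9.45, 9.77 and 9.54 CPM without IL-2. Its stimulated libraries spread over a range that included the no IL-2 values, and neither comparison was called (edgeR, adjusted p = 0.248 with ortho IL-2 and 0.225 with WT IL-2). The Timm8a1 to Timm8b ratio was 1.88-fold higher over the 6 IL-2 libraries than without IL-2, and the Timm10 to Timm10b ratio 1.68-fold higher, both without overlap (exact permutation p = 0.0238 and adjusted p = 0.0571 for each).

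**Figure D2:**
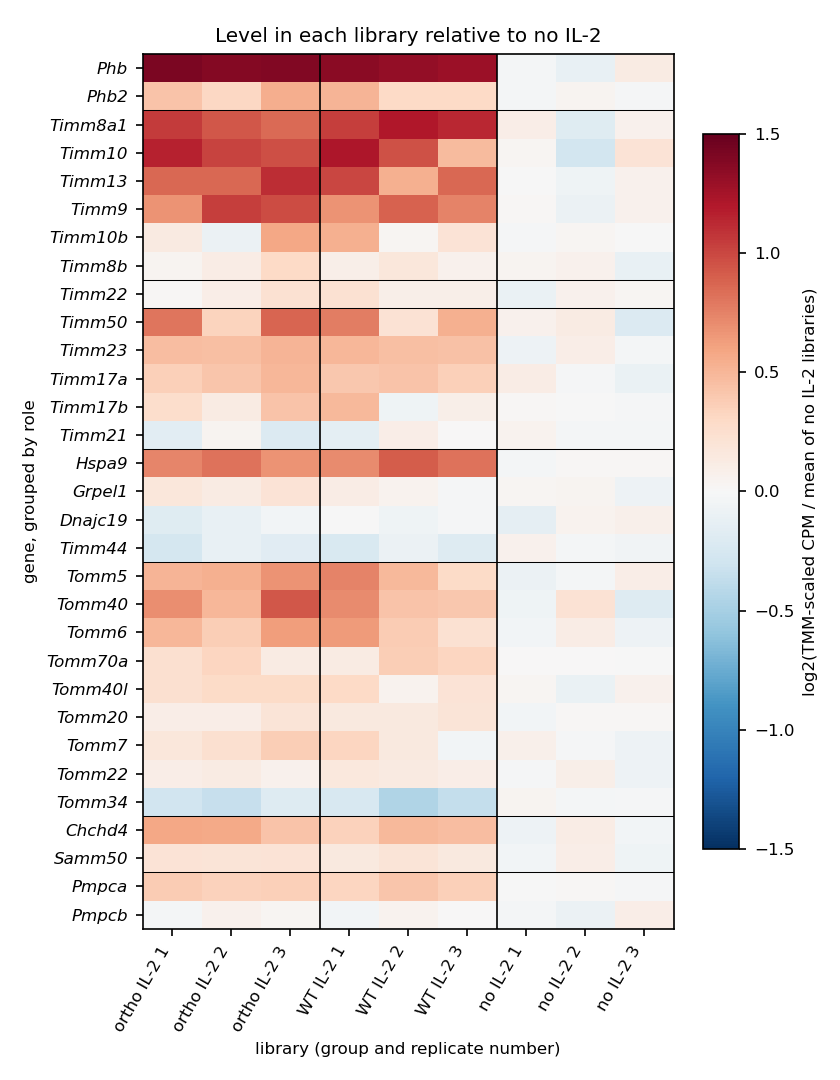
Level of each of the 31 tested genes (rows, grouped by role) in each library (columns) as the log2 ratio of its TMM-scaled CPM to the mean of the no IL-2 libraries; red is higher, blue lower. Phb, Timm8a1, Timm10, Timm13, Timm9 and Hspa9 are red in all 6 stimulated libraries, and Tomm34 and Timm44 are blue in them with this scaling.

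Timm22, the channel through which carrier proteins enter the inner membrane, did not pass the test in either comparison. It had 12.4, 13.1 and 14.3 CPM with ortho IL-2, 14.3, 13.0 and 13.0 CPM with WT IL-2, and 11.4, 12.9 and 12.5 CPM without IL-2, and the lowest stimulated library fell within the no IL-2 range for ortho IL-2. The log2 fold change was 0.12 ± 0.087 with ortho IL-2 and 0.14 ± 0.087 with WT IL-2 (edgeR, adjusted p = 0.265 with ortho IL-2 and 0.219 with WT IL-2), with a 95% interval of 0.949 to 1.24 with ortho IL-2 and 0.961 to 1.26 with WT IL-2 as ratios.

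Of the 5 subunits of the presequence translocase TIM23, 3 rose with each cytokine: the channel Timm23, its partner Timm17a and the receptor Timm50. Timm23 had 51.0, 50.4 and 52.6 CPM with ortho IL-2, 52.1, 50.4 and 49.9 CPM with WT IL-2, and 35.0, 39.6 and 36.2 CPM without IL-2. Stimulated libraries lay close together and did not overlap with the others, giving a log2 fold change of 0.48 ± 0.056 with ortho IL-2 and 0.46 ± 0.056 with WT IL-2 (edgeR, adjusted p = 7.28e-05 with ortho IL-2 and 9.55e-05 with WT IL-2). Timm23 has 6 near-identical copies, 5 of them pseudogenes, and its reads may be shared with them.

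Timm17a and Timm17b are alternative partners of the same channel. Timm17a had 23.9, 25.0 and 26.3 CPM with ortho IL-2, 24.7, 25.2 and 23.9 CPM with WT IL-2, and 20.1, 18.5 and 17.4 CPM without IL-2. It rose by 0.42 ± 0.071 with ortho IL-2 and 0.39 ± 0.071 with WT IL-2 on the log2 scale, with no overlap (edgeR, adjusted p = 7.90e-04 with ortho IL-2 and 0.00133 with WT IL-2). Timm17b had 14.5, 13.1 and 16.2 CPM with ortho IL-2, 16.8, 11.5 and 12.8 CPM with WT IL-2, and 12.2, 12 and 11.9 CPM without IL-2. The WT IL-2 libraries of Timm17b reached on both sides of the no IL-2 values, the ortho IL-2 libraries lay above them, and neither comparison was called (edgeR, adjusted p = 0.107 with ortho IL-2 and 0.282 with WT IL-2). Timm17b was called higher with ortho IL-2 without the low value filter, or when only the 2 groups compared were fitted. The Timm17a to Timm17b ratio was 1.14-fold higher over the IL-2 libraries with overlap (exact permutation p = 0.167).

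Timm50 had 9.99, 7.19 and 10.4 CPM with ortho IL-2, 9.75, 6.66 and 8.26 CPM with WT IL-2, and 5.97, 6.20 and 4.95 CPM without IL-2. It did not overlap between the groups, though library 2 of each cytokine came close to the no IL-2 values. Its log2 fold change was 0.69 ± 0.18 with ortho IL-2 and 0.52 ± 0.18 with WT IL-2 (edgeR, adjusted p = 0.00860 with ortho IL-2 and 0.0362 with WT IL-2). The WT call was lost when any 1 of 5 libraries was left out (WT IL-2 1 or 3, or any no IL-2 library), with adjusted p of 0.0589 to 0.113, and with offsets for GC content and length (adjusted p = 0.108), which gave 0.32 with ortho IL-2, still called, and 0.24 with WT IL-2. With a model term for replicate number added to these offsets, the ortho call of Timm50 was lost as well. Timm21, which links TIM23 to the outer membrane pore, had 17.4 to 20.6 CPM with ortho IL-2, 18.2 to 21.5 CPM with WT IL-2 and 19.7 to 20.8 CPM without IL-2 and was not called (edgeR, adjusted p = 0.291 with ortho IL-2 and 0.923 with WT IL-2).

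In the import motor, Hspa9 rose by far the most, Grpel1 passed the test with ortho IL-2 and not with WT IL-2, Dnajc19 was not called and Timm44 fell. Hspa9, the mitochondrial Hsp70 (mortalin) that pulls precursors inward, had 199, 211 and 192 CPM with ortho IL-2, 196, 225 and 211 CPM with WT IL-2, and 117, 122 and 121 CPM without IL-2. Its stimulated libraries did not overlap with the others. The log2 fold change was 0.74 ± 0.059 with ortho IL-2 and 0.81 ± 0.059 with WT IL-2 (edgeR, adjusted p = 4.60e-06 with ortho IL-2 and 2.44e-06 with WT IL-2), and it was called under all 19 alternatives run.

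Grpel1, the nucleotide exchange factor of Hspa9, had 31.5, 30.6 and 32.3 CPM with ortho IL-2, 30.3, 29.2 and 27.6 CPM with WT IL-2, and 28.6, 28.9 and 26.7 CPM without IL-2. The ortho IL-2 libraries were all above the rest, by a log2 fold change of 0.16 ± 0.060, and that of WT IL-2 was 0.047 ± 0.060 (edgeR, adjusted p = 0.0398 with ortho IL-2 and 0.545 with WT IL-2). The ortho call was lost when any 1 of 5 libraries was left out (ortho IL-2 1 or 3, or any no IL-2 library), with adjusted p of 0.0548 to 0.129. With all libraries kept, that call was also lost with RLE size factors in place of TMM and with DESeq2. The ratio of Hspa9 to Grpel1 in RPKM was 6.93, 7.58 and 6.53 with ortho IL-2, 7.11, 8.48 and 8.38 with WT IL-2, and 4.49, 4.62 and 4.98 without IL-2. It was 1.59-fold higher over the IL-2 libraries, without overlap (exact permutation p = 0.0238, adjusted p = 0.0571).

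Dnajc19, a J-protein related to the co-chaperone of the motor, had 13.1, 13.8 and 14.5 CPM with ortho IL-2, 14.8, 14.2 and 14.6 CPM with WT IL-2, and 13.5, 15.4 and 15.6 CPM without IL-2. Its libraries overlapped and no comparison was called (edgeR, adjusted p = 0.289 with ortho IL-2 and 0.80 with WT IL-2), with 95% intervals of the ratio of 0.822 to 1.05 for ortho IL-2 and 0.868 to 1.11 for WT IL-2. Timm44, which tethers the motor to the channel, had 43.9, 48.6 and 47.0 CPM with ortho IL-2, 45.1, 49.5 and 46.1 CPM with WT IL-2, and 55.3, 51.8 and 50.9 CPM without IL-2. It fell by 0.18 ± 0.060 with ortho IL-2 and by 0.17 ± 0.060 with WT IL-2 on the log2 scale without overlap (edgeR, adjusted p = 0.0260 with ortho IL-2 and 0.0406 with WT IL-2), but with the RPKM divisor as scaling it was at 0.10 with ortho IL-2 and 0.049 with WT IL-2 and not called. Its call also depended on single libraries: it was lost without ortho IL-2 1 or 3 or no IL-2 1 in the ortho comparison (adjusted p 0.0514 to 0.103), and without WT IL-2 1 or 3 or any no IL-2 library in the WT comparison (adjusted p 0.0536 to 0.143).

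Of the 9 tested genes grouped with the outer membrane complex, 7 rose and 1 fell with ortho IL-2, and 5 rose and 1 fell with WT IL-2. The gene that fell was Tomm34, named for the complex but with a cytosolic product. Tomm40, the pore, had 21.5, 18.6 and 25.1 CPM with ortho IL-2, 21.6, 17.7 and 17.4 CPM with WT IL-2, and 12.7, 15.4 and 11.6 CPM without IL-2. Its libraries did not overlap between groups but varied widely within them. The log2 fold change was 0.72 ± 0.14 with ortho IL-2 and 0.51 ± 0.14 with WT IL-2 (edgeR, adjusted p = 0.00199 with ortho IL-2 and 0.0138 with WT IL-2). The WT call was lost without no IL-2 1 or 3 (adjusted p 0.0533 and 0.0538), and offsets for GC content and length gave 0.33 with ortho IL-2 and 0.26 with WT IL-2, still called.

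The receptors moved little without offsets for GC content and length. Tomm20, which reads presequences, had 117, 118 and 125 CPM with ortho IL-2, 122, 121 and 125 CPM with WT IL-2, and 107, 111 and 111 CPM without IL-2. The rise, 0.13 ± 0.043 with ortho IL-2 and 0.16 ± 0.043 with WT IL-2 in log2, was called without overlap (edgeR, adjusted p = 0.0282 with ortho IL-2 and 0.0121 with WT IL-2). It was lost in the ortho comparison without ortho IL-2 3 or any no IL-2 library (adjusted p 0.0520 to 0.112) and in the WT comparison without no IL-2 1 (adjusted p = 0.0611), and 4 near-identical pseudogene copies may share its reads.

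Tomm22, the central receptor, had 58.1, 58.8 and 56.4 CPM with ortho IL-2, 60.2, 59.5 and 57.9 CPM with WT IL-2, and 53.5, 57.8 and 51.2 CPM without IL-2. Its log2 fold change was 0.092 ± 0.053 with ortho IL-2 and 0.13 ± 0.053 with WT IL-2, and neither was called (edgeR, adjusted p = 0.164 with ortho IL-2 and 0.0709 with WT IL-2). Tomm22 was called with WT IL-2 once no IL-2 library 2 was left out (adjusted p = 0.0252). The same call was made without the low value filter or with another such filter (filterByExpr). Tomm70a, the receptor for carrier proteins, had 149, 157 and 137 CPM with ortho IL-2, 137, 162 and 158 CPM with WT IL-2, and 127, 126 and 125 CPM without IL-2. Its log2 fold change was 0.23 ± 0.070 with ortho IL-2 and 0.27 ± 0.070 with WT IL-2 without overlap (edgeR, adjusted p = 0.0187 with ortho IL-2 and 0.00965 with WT IL-2). In the ortho comparison that call was lost without ortho IL-2 1 or 2 or any no IL-2 library (adjusted p 0.0519 to 0.0615). Offsets for GC content and length, given further below, put the Tomm70a estimates above those of Tomm40 with both cytokines.

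Among the small subunits that assemble around the pore, Tomm5 and Tomm6 rose with both cytokines. Tomm5 had 19.0, 19.3 and 21.2 CPM with ortho IL-2, 22.3, 18.7 and 16.3 CPM with WT IL-2, and 12.6, 13.1 and 14.3 CPM without IL-2, a log2 fold change of 0.58 ± 0.11 with ortho IL-2 and 0.52 ± 0.12 with WT IL-2 (edgeR, adjusted p = 0.00208 with ortho IL-2 and 0.00414 with WT IL-2). Tomm6 had 31.5 ± 2.79 CPM with ortho IL-2, 29.9 ± 4.37 with WT IL-2 and 22.3 ± 1.62 without IL-2 (SD, n = 3 each) and changed by 0.50 ± 0.11 with ortho IL-2 and 0.43 ± 0.11 with WT IL-2 in log2 (edgeR, adjusted p = 0.00376 with ortho IL-2 and 0.0104 with WT IL-2). Neither gene overlapped between stimulated and unstimulated libraries. Offset for GC content and length, Tomm6 was at 0.31 with ortho IL-2 and 0.27 with WT IL-2, still called. Tomm6 lies in a stretch where Gm21981 and the antisense Tomm6os also lie, so its reads cannot be told apart from theirs.

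Tomm7 and Tomm40l, a paralog of the pore, passed the test with ortho IL-2 and not with WT IL-2, a difference that was itself not called. Tomm7 had 49.9 ± 3.54 CPM with ortho IL-2, 46.2 ± 5.93 with WT IL-2 and 41.6 ± 2.22 without IL-2, and Tomm40l had 14.4 ± 0.302 CPM with ortho IL-2, 13.6 ± 1.17 with WT IL-2 and 11.9 ± 0.739 without IL-2 (SD, n = 3 each). The log2 fold change of Tomm7 was 0.26 ± 0.094 with ortho IL-2 and 0.15 ± 0.094 with WT IL-2 (edgeR, adjusted p = 0.0375 with ortho IL-2 and 0.215 with WT IL-2), and that of Tomm40l was 0.27 ± 0.086 with ortho IL-2 and 0.19 ± 0.086 with WT IL-2 (edgeR, adjusted p = 0.0222 with ortho IL-2 and 0.0915 with WT IL-2). Single libraries decided these calls. Tomm7 lost the ortho call without ortho IL-2 2 or 3 or no IL-2 2 or 3 (adjusted p 0.0617 to 0.128) and gained a WT call without WT IL-2 3 (adjusted p = 0.0490). Tomm40l lost it without ortho IL-2 2 or 3 or no IL-2 2 (adjusted p 0.0505 to 0.0830) and gained a WT call without WT IL-2 2 (adjusted p = 0.0386).

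Tomm34 ran against the rest. Named for the translocase, its product is a cytosolic co-chaperone that binds Hsp70 and Hsp90. It had 61.4, 59.0 and 65.7 CPM with ortho IL-2, 63.7, 55 and 58.6 CPM with WT IL-2, and 77.3, 73.8 and 74.1 CPM without IL-2. All stimulated libraries were below the no IL-2 libraries, and it fell by 0.27 ± 0.063 with ortho IL-2 and by 0.34 ± 0.063 with WT IL-2 on the log2 scale (edgeR, adjusted p = 0.00491 with ortho IL-2 and 0.00146 with WT IL-2), whereas with the RPKM divisor as scaling it was at 0.0083 with ortho IL-2 and -0.13 with WT IL-2 and not called. Offsets for GC content and length moved it the other way, to -0.52 with ortho IL-2 and -0.53 with WT IL-2, both called.

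Samm50 forms the barrel of the assembly machinery of the outer membrane, and Chchd4 (Mia40) oxidises proteins in the intermembrane space, and both were called higher. Samm50 had 75.4, 74.8 and 75.8 CPM with ortho IL-2, 72.8, 75.1 and 72.4 CPM with WT IL-2, and 63.8, 70.3 and 62.7 CPM without IL-2. The groups stood apart by a small margin, with a log2 fold change of 0.20 ± 0.051 with ortho IL-2 and 0.16 ± 0.051 with WT IL-2 (edgeR, adjusted p = 0.00837 with ortho IL-2 and 0.0248 with WT IL-2). The WT call was lost without WT IL-2 2, no IL-2 1 or no IL-2 3 (adjusted p 0.0697 to 0.0992), and offsets for GC content and length left 0.079 with ortho IL-2 (adjusted p = 0.172) and 0.072 with WT IL-2 (adjusted p = 0.216), neither called. Chchd4 had 6.20, 6.17 and 5.58 CPM with ortho IL-2, 5.26, 5.81 and 5.72 CPM with WT IL-2, and 3.95, 4.47 and 4.04 CPM without IL-2, did not overlap between groups, and changed by 0.52 ± 0.10 with ortho IL-2 and 0.43 ± 0.10 with WT IL-2 (edgeR, adjusted p = 0.00180 with ortho IL-2 and 0.00629 with WT IL-2).

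The matrix processing peptidase removes presequences after import, and 1 of its 2 subunits was called. Pmpca, which recognises the presequence, had 72.6, 70.7 and 71.6 CPM with ortho IL-2, 69.4, 74.4 and 71.3 CPM with WT IL-2, and 55.3, 56.6 and 55.2 CPM without IL-2. It rose by 0.36 ± 0.044 with ortho IL-2 and 0.36 ± 0.044 with WT IL-2 on the log2 scale (edgeR, adjusted p = 8.44e-05 with ortho IL-2 and 8.68e-05 with WT IL-2), with no overlap. Pmpcb, the catalytic subunit, had 42.2, 45.0 and 43.9 CPM with ortho IL-2, 41.8, 44.8 and 43.1 CPM with WT IL-2, and 42.2, 40.6 and 46.2 CPM without IL-2. The groups overlapped fully, and the 95% interval of the ratio was 0.927 to 1.12 for ortho IL-2 and 0.918 to 1.10 for WT IL-2 (edgeR, adjusted p = 0.746 with ortho IL-2 and 0.902 with WT IL-2). The ratio of Pmpca to Pmpcb in RPKM was 1.27-fold higher over the IL-2 libraries, with no overlap (exact permutation p = 0.0238, adjusted p = 0.0571).

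**Figure D3:**
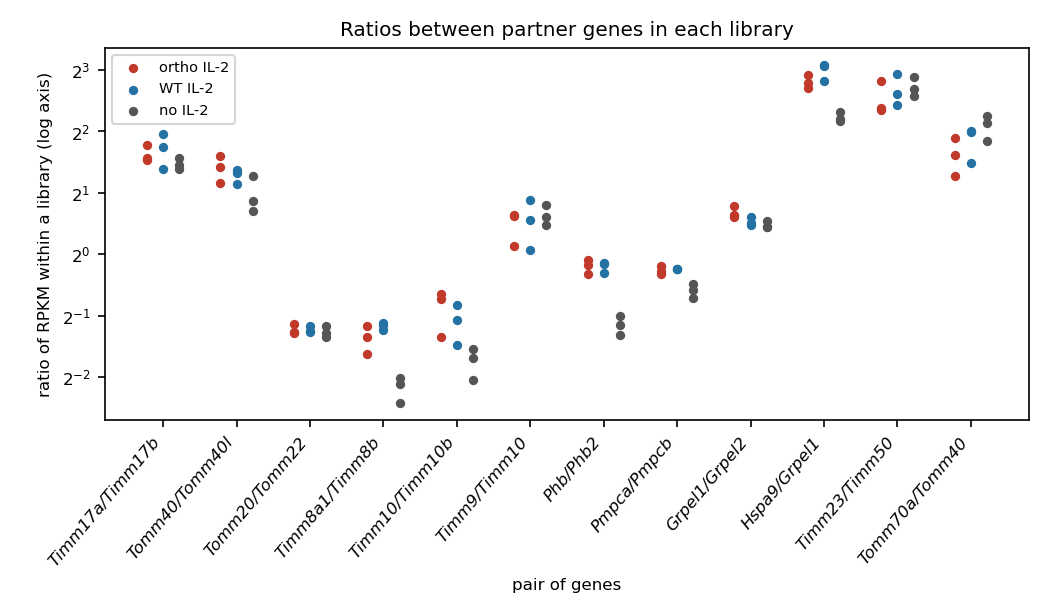
Ratio of the RPKM of 2 partner genes within each library (vertical axis, log scale) for 12 pairs; red is ortho IL-2, blue WT IL-2, grey no IL-2, and each point is a library. The points of Phb/Phb2, Timm8a1/Timm8b, Timm10/Timm10b, Hspa9/Grpel1 and Pmpca/Pmpcb are higher in all 6 stimulated libraries than in the 3 others, and the remaining 7 pairs overlap.

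The scaling of libraries does not enter such ratios. None of the 12 pairs passed the adjusted threshold, since 5 pairs at the smallest p of 0.0238 (exact permutation test) give an adjusted p of 0.0571. A pair could not pass alone with these libraries, and the pairs were chosen with earlier results of these data known. The pairs that overlapped included Tomm20/Tomm22 (1.02-fold, exact permutation p = 0.548), Timm23/Timm50 (0.916-fold, p = 0.429) and Tomm70a/Tomm40 (0.773-fold, p = 0.119).

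Gene by gene, the 31 tested genes had levels with ortho IL-2 and with WT IL-2 that differed by less than 1.5-fold. No import or prohibitin gene was called between ortho and WT IL-2, where 0.0% of all genes were called: edgeR, DESeq2 and limma each called none of the 31, and none had an unadjusted p under 0.05 in edgeR. Estimates ran from -0.18 for Timm8a1 to 0.21 for Tomm40 on the log2 scale. The 95% interval of every ratio of ortho to WT IL-2 lay within 1.5-fold in either direction, between 0.754 and 1.47. Libraries did not overlap for 2 of the 31 genes, Phb and Grpel1 (4.65% of all genes). The doses differed 100-fold in IU/mL, so these values stand side by side at unmatched doses. Genes called with ortho IL-2 alone (Grpel1, Tomm40l and Tomm7) are therefore not shown to differ between the cytokines: the ratio of ortho to WT IL-2 was 0.990 to 1.19 for Grpel1, 0.928 to 1.20 for Tomm40l and 0.937 to 1.25 for Tomm7 (95% intervals).

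Per transcript length, the members spanned a wide range of levels. Without IL-2, Tomm22 stood first at 31 ± 2.63 RPKM, and its libraries did not overlap with those of any other member. Hspa9 (23.1 ± 1.46), Samm50 (23 ± 2.11), Tomm7 (22 ± 0.515) and Phb2 (21.5 ± 1.44) followed with overlapping libraries (mean ± SD, n = 3 each). At the low end were Timm10 (1.68 ± 0.278), Chchd4 (1.96 ± 0.201) and Tomm40l (2.39 ± 0.146). The order at the top was another with either cytokine: Hspa9 stood first at 46.8 ± 2.57 RPKM with ortho IL-2 and 47.1 ± 4.05 with WT IL-2, above Tomm22 at 40.1 ± 1.88 with ortho IL-2 and 39.3 ± 2.62 with WT IL-2, with no overlap between the 2 genes in either group.

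**Figure D4:**
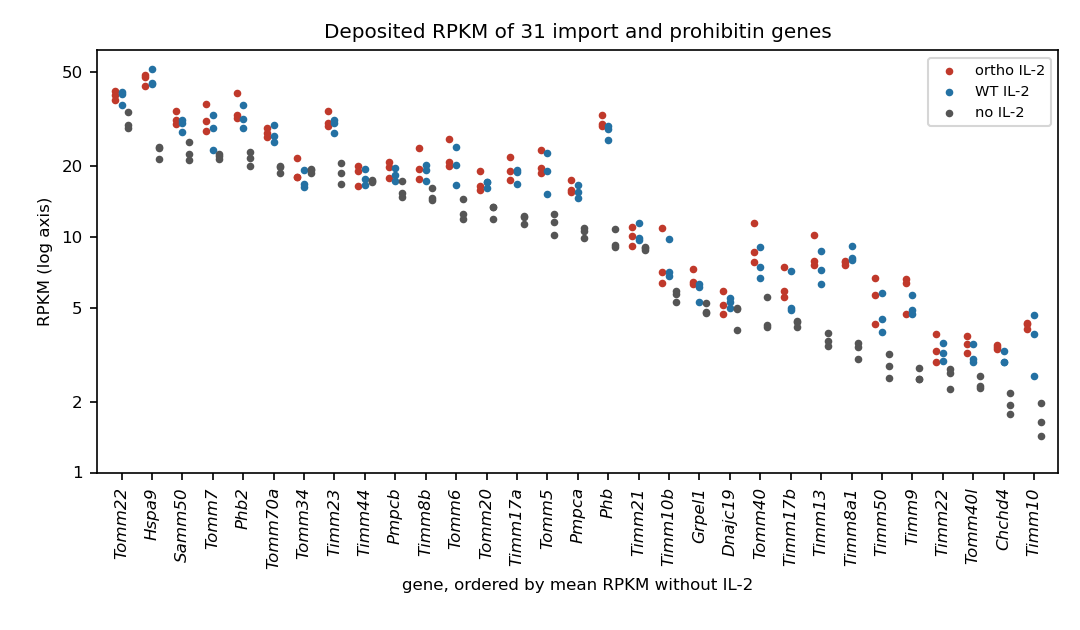
Deposited RPKM (vertical axis, log scale) of the 31 tested genes in each library, ordered by their mean without IL-2; red is ortho IL-2, blue WT IL-2, grey no IL-2. Hspa9 is at 43.9 to 48.6 RPKM with ortho IL-2, 44.5 to 51.8 with WT IL-2 and 21.4 to 24.1 without IL-2, and Phb at 29.5 to 32.8 with ortho IL-2, 25.9 to 29.6 with WT IL-2 and 9.04 to 10.8 without IL-2.

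Replicates of the stimulated groups varied more for members rich in G and C. Among 7 genes with at least 55% GC in their transcript, the median coefficient of variation was 9.98% with ortho IL-2, 12.3% with WT IL-2 and 4.51% without IL-2. In the 24 others it was 5.47% with ortho IL-2, 5.42% with WT IL-2 and 6.17% without IL-2. Across the 31 genes, the log2 ratio of 2 replicates followed GC content with r = 0.67 for ortho IL-2 library 3 over 2 and r = 0.66 for WT IL-2 library 1 over 2, but with r = -0.08 for no IL-2 library 1 over 2. These pairs were chosen after the data were seen, genes of the same library share its preparation, and the same held over 10502 genes (r = 0.61 for ortho IL-2, 0.63 for WT IL-2 and -0.10 for no IL-2). Offsets for GC content and length moved the estimates of called genes in both directions and changed the sign of none of them. With ortho IL-2, 5 of the 23 called genes became larger by over 1.5 times (Grpel1, Timm44, Tomm20, Tomm34 and Tomm70a) and 6 smaller (Phb2, Samm50, Timm13, Timm50, Tomm40 and Tomm6). With WT IL-2, 3 of the 20 became larger (Tomm20, Tomm34 and Tomm70a) and 5 smaller (Phb2, Samm50, Timm50, Tomm40 and Tomm6). Among the larger ones not yet given, Tomm70a was at 0.50 with ortho IL-2 and 0.44 with WT IL-2, and Tomm20 at 0.28 with ortho IL-2 and 0.25 with WT IL-2. With ortho IL-2, Grpel1 was at 0.26 and Timm44 at -0.28. Of the genes not called, none became called, and the estimate changed sign for Dnajc19 (0.19 with ortho IL-2 and 0.17 with WT IL-2), for Timm21 (0.044 with ortho IL-2 and 0.077 with WT IL-2) and for Timm10b with ortho IL-2 (-0.075).

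**Figure D5:**
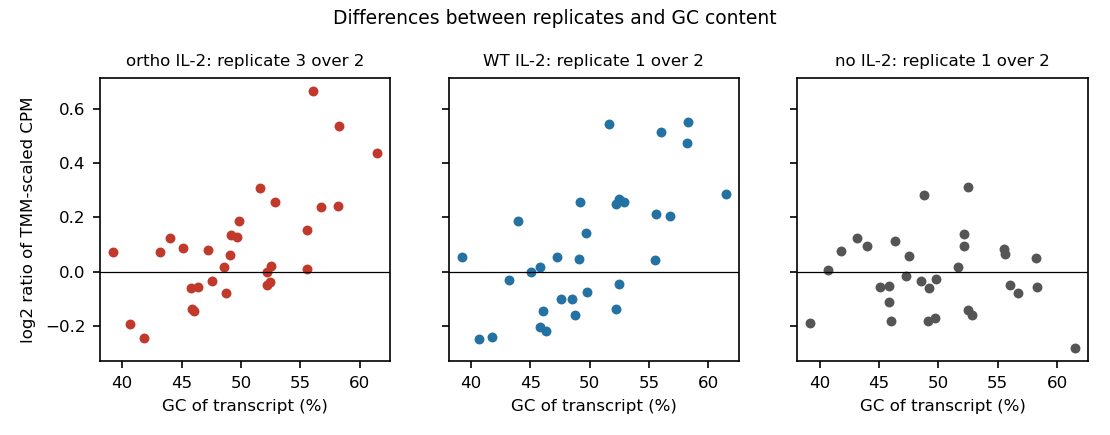
Log2 ratio of TMM-scaled CPM between 2 replicates of a group (vertical axis) against transcript GC content in percent (horizontal axis), 31 genes as points; panels show ortho IL-2, WT IL-2 and no IL-2. The points climb with GC in the first 2 panels (r = 0.67 for ortho IL-2 and 0.66 for WT IL-2) and not in the last (r = -0.08 for no IL-2).

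The 3 members that were not tested were at or near the limit of detection. Tomm20l, a paralog of Tomm20, had 0 reads in all 9 libraries, which allows up to 0.0516 to 0.181 CPM depending on the library (counting error only). Timm8a2, a paralog of Timm8a1, had 1 to 4 reads in a library. Tomm6os, a noncoding transcript antisense to Tomm6 that meets the rule by its letters only, had 0.719, 0.557 and 0.589 CPM with ortho IL-2, 0.254, 0.454 and 0.349 CPM with WT IL-2, and 0.304, 0.301 and 0.428 CPM without IL-2, or 7 to 35 reads.

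Other genes of import and mitochondrial protein quality control were listed by role, with earlier results of these data known. They also rose more often than they fell. The list includes Timmdc1, an assembly factor of respiratory complex I, and 2310061I04Rik, for which no such role is annotated here. Of 43 tested, 19 rose, 3 fell and 21 were not called with ortho IL-2, and 16 rose, 2 fell and 25 were not called with WT IL-2, with a median log2 fold change of 0.17 with ortho IL-2 and 0.12 with WT IL-2. Over all genes tested, 28.5% rose and 27.4% fell with ortho IL-2, and 25.0% rose and 22.9% fell with WT IL-2. These counts depend on the model: with the RPKM divisor 34 rose with ortho IL-2 and 29 with WT IL-2, and with the percentage of outside reads added 1 rose with ortho IL-2 and 2 with WT IL-2. Msto1, which acts in mitochondrial distribution, rose most clearly at 15.3 ± 1.71 CPM with ortho IL-2 and 14.7 ± 1.91 with WT IL-2, against 7.61 ± 0.305 without IL-2 (SD, n = 3 each), a log2 fold change of 1.01 ± 0.12 with ortho IL-2 and 0.95 ± 0.12 with WT IL-2. Stoml2, a binding partner of prohibitins, changed by 0.48 ± 0.081 with ortho IL-2 and 0.41 ± 0.081 with WT IL-2. The outer membrane porin Vdac1 changed by 0.29 ± 0.043 with ortho IL-2 and 0.24 ± 0.043 with WT IL-2. Gfer, which reoxidises Chchd4, changed by 0.47 ± 0.079 with ortho IL-2 and 0.33 ± 0.079 with WT IL-2. Dnlz, a partner of Hspa9 in human cells, changed by 0.66 ± 0.11 with ortho IL-2 and 0.65 ± 0.11 with WT IL-2. Agk, a subunit of the human TIM22 complex, changed by 0.30 ± 0.060 with ortho IL-2 and 0.39 ± 0.059 with WT IL-2. These values are log2 ± SE, and all of these genes were called higher by edgeR in both comparisons.

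Fewer of these genes fell. Apool, a subunit of the MICOS complex that shapes cristae, changed by -0.30 ± 0.065 with ortho IL-2 and -0.24 ± 0.065 with WT IL-2, and Mtx3, a metaxin, by -0.20 ± 0.056 with ortho IL-2 and -0.21 ± 0.056 with WT IL-2, both called by edgeR with TMM scaling. With the RPKM divisor, Mtx3 was at 0.075 with ortho IL-2 and 0.0055 with WT IL-2 and not called. Yme1l1, a protease of the inner membrane, changed by -0.37 ± 0.12 with ortho IL-2 (called) and -0.26 ± 0.12 with WT IL-2 (not called), and with offsets for GC content and length its ortho value was 0.0036. The Mtx3 call with ortho IL-2 was lost without ortho IL-2 3 (adjusted p 0.0540), and that of Yme1l1 without ortho IL-2 1 or 3 or any no IL-2 library (adjusted p 0.0505 to 0.0928).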

How the data were processed

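RNA-seq was analysed from 9 libraries, 3 per group. The authors deposited 1 table per library, with raw read counts and RPKM for 31682 RefSeq transcripts, per the file headers. The build was mm10 and the tools were edgeR, TopHat2, Bowtie2, bedtools 2.25.0 and SAMtools 0.1.8, per the submitters' processing notes. What each tool did, how reads were counted and on which strand is not stated there. The genes, partner pairs and lists were chosen with earlier results of these data known.

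For each symbol the transcript with the most summed reads was kept. The 10702 genes that reached an RPKM of 1 in 3 or more libraries were tested on the counts in R 4.3.3 with edgeR 4.0.16 (TMM scaling, two-sided quasi-likelihood test), over all 9 libraries, with Benjamini-Hochberg adjustment and a threshold of 0.05. The edgeR fit of WT IL-2 against no IL-2 was tested on simulated counts, with the same spread in every group and no trend with GC content. Standard errors and 95% intervals come from the same fit. Partner ratios used deposited RPKM and exact permutation tests in SciPy 1.17.1, with Benjamini-Hochberg adjustment over 12 pairs. Alternatives were RLE size factors, the RPKM divisor, DESeq2 1.42.0, limma 3.58.1 on log2(RPKM + 0.1) and log2(RPKM + 1), other low value filters, the longest transcript, a replicate block, offsets for GC content and length, the percentage of reads outside the transcripts taken as a model term, fits of 2 groups only, and each library left out. The offsets together with the replicate block were added after the data were seen.

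Named genes were the members with a defined role, the 5 largest called rises and falls in each comparison, and, of the other list, the 4 smallest p in each direction. Gene overlaps and GC content came from GENCODE transcripts on GRCm38, and copies of at least 95% identity over at least 200 bases were found with BLAST 2.17.0. Depth was 16581624 to 58182835 reads in genes, where 3 reads, taken as the floor, are 0.0516 to 0.181 CPM. Floors cover counting error only. Replicate numbers are shared between groups, but same-numbered libraries did not deviate together (r from -0.66 to 0.44), so libraries were not paired.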

Additional observations from a re-analysis of the deposited data

How the results depend on the processing

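Between ortho and WT IL-2, 0 of the 31 genes were called under each of 13 alternatives and with each library left out. The counts of rises stayed within 1.5 times under RLE size factors, the RPKM divisor, DESeq2, limma, fits of 2 groups only, the filters, the longest transcript, the replicate block and the GC offsets, and ran from 16 to 19 for ortho IL-2 and from 14 to 18 for WT IL-2 with 1 library left out (against 21 with ortho IL-2 and 18 with WT IL-2 over all libraries). With the percentage of reads outside the transcripts taken as a covariate they were 3 for ortho IL-2 and 6 for WT IL-2. Under the RPKM divisor, 6 genes not called with ortho IL-2 and 8 not called with WT IL-2 became called, all higher. The 2 falls were less stable. In the ortho comparison there were 0 with the RPKM divisor, either limma fit or the covariate, 1 without the low value filter or with filterByExpr, and 1 to 2 with a library left out. In the WT comparison there were 0 with the RPKM divisor, either limma fit or the covariate, 1 without the low value filter, with filterByExpr, with the replicate block or with only the 2 groups, and 1 to 2 with a library left out. The replicate block also ended the ortho calls of Grpel1 and Tomm7 and the WT call of Timm44, and changed no other call among the 31 genes. Used together with the GC and length offsets, the block fit lost the ortho calls of Samm50, Timm50 and Tomm40l and the WT calls of Samm50 and Timm50.

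Timm44 changed sign under the RPKM divisor and limma with a pseudocount of 0.1 or 1, at 0.10, 0.095 and 0.090 with ortho IL-2 and 0.049, 0.046 and 0.044 with WT IL-2. Tomm34 did so with ortho IL-2, at 0.0083, 0.00039 and 0.00061. Mtx3 was at 0.075, 0.071 and 0.054 with ortho IL-2 and 0.0055, 0.0040 and 0.0031 with WT IL-2, and at 0.020 with the GC and length offsets, with or without the block, in ortho IL-2. Yme1l1 in ortho IL-2 was at 0.0036 with these offsets and 0.0047 with the block added. The cause of these changes was not tested.

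Of the 43 other import and quality control genes, rises numbered 34 with ortho IL-2 under the RPKM divisor and both limma fits, and 29 under the divisor and 30 under both limma fits with WT IL-2. With the covariate they were 1 for ortho IL-2 and 2 for WT IL-2, and with 1 library left out 15 to 17 for ortho IL-2 and 11 to 17 for WT IL-2. Falls with ortho IL-2 numbered 1 under the divisor, 0 under limma or the covariate, and 1 to 4 with a library left out. Falls with WT IL-2 numbered 0 under the divisor, limma, the covariate or no low value filter, and 1 with the offsets, with or without the block. The number of partner pairs called was 0 with a pseudocount of 1 or the longest transcript. With 1 library left out (smallest possible p 0.0714 for 6 against 2) or for each cytokine alone (0.10), 0 calls were fixed by the design and say nothing of stability. Median RPKM of the tested members, 17.1 with ortho IL-2, 16.7 with WT IL-2 and 10.4 without IL-2, became 24.1 with ortho IL-2, 24.6 with WT IL-2 and 17.8 without IL-2 when RPKM was computed on TMM-scaled libraries.

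Depth limits Timm10 most of the tested members, with as few as 36 reads in a library. All levels are relative to total mRNA, and whether libraries of a group were separate cultures is not known from the labels.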

Other observations

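Some genes near the import pathway stood out after their values were seen. Their p-values come from the same data that picked them out and are descriptive only. Romo1, a small inner membrane protein tied in human cells to TIM23, had 7.05 ± 1.29 CPM with ortho IL-2, 6.91 ± 1.92 CPM with WT IL-2 and 4.10 ± 0.506 CPM without IL-2 (SD, n = 3 each), and was called higher by edgeR with ortho IL-2 (adjusted p = 0.00991) and with WT IL-2 (adjusted p = 0.0135). The matrix chaperonin pair was split: Hspd1 rose by 0.29 ± 0.082 with ortho IL-2 and 0.36 ± 0.082 with WT IL-2 on the log2 scale (edgeR, adjusted p = 0.0135 with ortho IL-2 and 0.00469 with WT IL-2), while its partner Hspe1 was at -0.025 ± 0.062 with ortho IL-2 and 0.046 ± 0.062 with WT IL-2 and was not called (adjusted p = 0.752 with ortho IL-2 and 0.561 with WT IL-2). The difference between the 2 genes was not tested.

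Timmdc1, an assembly factor of respiratory complex I whose name resembles the translocases, showed a wide spread between replicates. It had 38.5 ± 22.7 CPM with ortho IL-2, 47.0 ± 20.5 CPM with WT IL-2 and 87.0 ± 39.8 CPM without IL-2 (SD, n = 3 each), and was not called (edgeR, adjusted p = 0.0560 with ortho IL-2 and 0.141 with WT IL-2).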
